A study of Homo sapiens with 8 samples.

Results

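The collagen and laminin chain genes were examined in 2 human melanoma cell lines with and without introduced ATF3. The members were the protein-coding genes whose symbols follow the pattern of a collagen alpha chain (COL, a number, A, a number) or of a laminin alpha, beta or gamma chain (LAMA, LAMB or LAMC and a digit). They number 56, of 18478 genes in the authors' table: 44 collagen and 12 laminin chains. A2058 and C8161 are established melanoma lines, here either transduced with a retrovirus that carries ATF3, a transcription factor that many kinds of stress induce, or carrying a neomycin control. A2058 is represented by 1 library with ATF3 and 1 control library. C8161 has 3 libraries of each kind, and the table holds 1 combined value per gene and arm for them. The culture medium of every library was DMEM with 10% serum of fetal calves. Neither the promoter of the virus nor whether the C8161 libraries are separate transductions is given in the sources used here. No comparison below has a replicate spread, so none was tested, and each difference describes these values alone.

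Collagens are matrix proteins whose alpha chains wind around one another in a rope-like helix, and the class of a collagen depends on which chains join and on what follows the helix. Collagen IV forms the meshwork of basement membranes, fibrillar collagens form the cables of connective tissue, and collagen VI forms beaded filaments next to cells. Laminins are cross-shaped trimers of an alpha, a beta and a gamma chain that start basement membrane assembly and bind integrins. A tumour cell that crosses a basement membrane meets both, and melanoma cells also make them.

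Levels are given in RPKM, reads per kilobase of transcript scaled to the depth of a library, which can be compared between genes of different length. Ratios are log2 ratios of RPKM + 1, which understate the differences of low genes, over genes at 1 RPKM or more in at least 1 of the columns compared. The 4 column sums lay between 470633 and 481302 RPKM, and 10866 to 11753 genes reached 1 RPKM in a column. ATF3 itself was at 62.6 RPKM in C8161 with ATF3 against 4.76 in its control (13.1-fold), and at 4.71 against 1.22 in A2058 (3.86-fold). The values do not separate the introduced copy from the cells' own gene. Low values of the A2058 columns gathered only loosely at whole-read steps, with a coherence of 0.33 to 0.45, where 1 means all on steps. The best fits place their depth at about 18200000 to 20400000 reads, depending on the values used. This estimate was settled after the data were seen, once earlier forms of the search had given unstable values. The combined C8161 columns gave no stable step, with best fits from 10800000 to 46800000 reads at a coherence of 0.11 to 0.35. Their depth is unknown.

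The label of melanoma was checked with 9 genes of the melanocyte lineage. In A2058, 9 of 9 were at 1 RPKM or more in both columns, among them the lineage regulators SOX10 at 254 RPKM and MITF at 54.0 RPKM and the melanosome protein PMEL at 806 RPKM in the control. In the C8161 control 0 of 9 reached 1 RPKM, and with ATF3 only MITF did, at 1.02. SOX10 was there at 0.06 RPKM, PMEL at 0.18 and the pigment enzyme TYR was listed at 0. The summed level of these markers was 1576 to 1621 RPKM in A2058 and 1.66 to 1.74 RPKM in C8161. Apart from MITF, at 0.95 RPKM in the control and 1.02 with ATF3, the markers of the lineage were thus at 0.33 RPKM or less in C8161. Markers of fibroblasts, which make most interstitial collagen, summed to 19.4 to 20.0 RPKM in A2058 and 46.4 to 48.0 in C8161. In C8161 most of that sum was PDPN, at 41.5 to 43.2 RPKM, and decorin (DCN) was listed at 0. In A2058 LUM (7.67 to 7.92 RPKM), THY1 (7.09 to 7.90) and ACTA2 (2.87 to 3.33) made up most of it, and DCN stood at 0.08. Summed markers of endothelium were at 54.2 to 58.3 RPKM in A2058 and 87.5 to 91.9 in C8161, those of leukocytes at 39.4 to 41.3 and 30.5 to 38.8, and those of keratinocytes at 32.0 to 33.6 and 163 to 167. The endothelial sum was nearly all EGFL7 in A2058 (49.0 to 54.4 RPKM). In C8161 it was nearly all TIE1 (62.8 to 67.2), CDH5 (8.86 to 18.1) and EGFL7 (8.58 to 9.75). PECAM1, VWF, KDR, TEK and CLDN5 were at 0.34 or less in all columns. The leukocyte sum was nearly all CD68 (29.03 to 38.17 RPKM), with PTPRC at 0.43 or less. The keratinocyte sum was nearly all KRT10 in A2058 (30.4 to 31.2) and SFN (146 to 152) and KRT10 (15.3 to 16.2) in C8161, with KRT5, KRT14, TP63 and DSG3 at 0.36 or less. The part of these cell states in the chain levels was not tested, and in bulk RNA fewer cells of a kind and less RNA per cell cannot be told apart.

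In both lines a smaller share of the chains than of all genes reached 1 RPKM. In the A2058 control 24 of 56 chains reached 1 RPKM and 12 reached 10 RPKM, and in the C8161 control 21 and 10 did. With ATF3 these counts were 25 and 11 in A2058 and 21 and 10 in C8161. That is 37.5% to 44.6% of the chains at 1 RPKM or more in a column. Of all 18478 genes, 58.8% to 63.6% reached 1 RPKM in a column and 32.2% to 35.4% reached 10 RPKM. As many as 23 chains stayed under 1 RPKM in all columns, 15 of them under 0.1, and COL6A5 was listed at 0 throughout. The chains together took 0.166% of the summed RPKM in the A2058 control and 0.130% in the C8161 control. The 5 highest chains made up 69.6% and 79.8% of those member sums. Besides the 27 chains at 2 RPKM or more in some column, nearly all described below, 6 lay between 1 and 2 RPKM at their highest (COL5A1, COL6A3, COL7A1, COL16A1, LAMA3 and LAMC3).

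**Figure D1:**
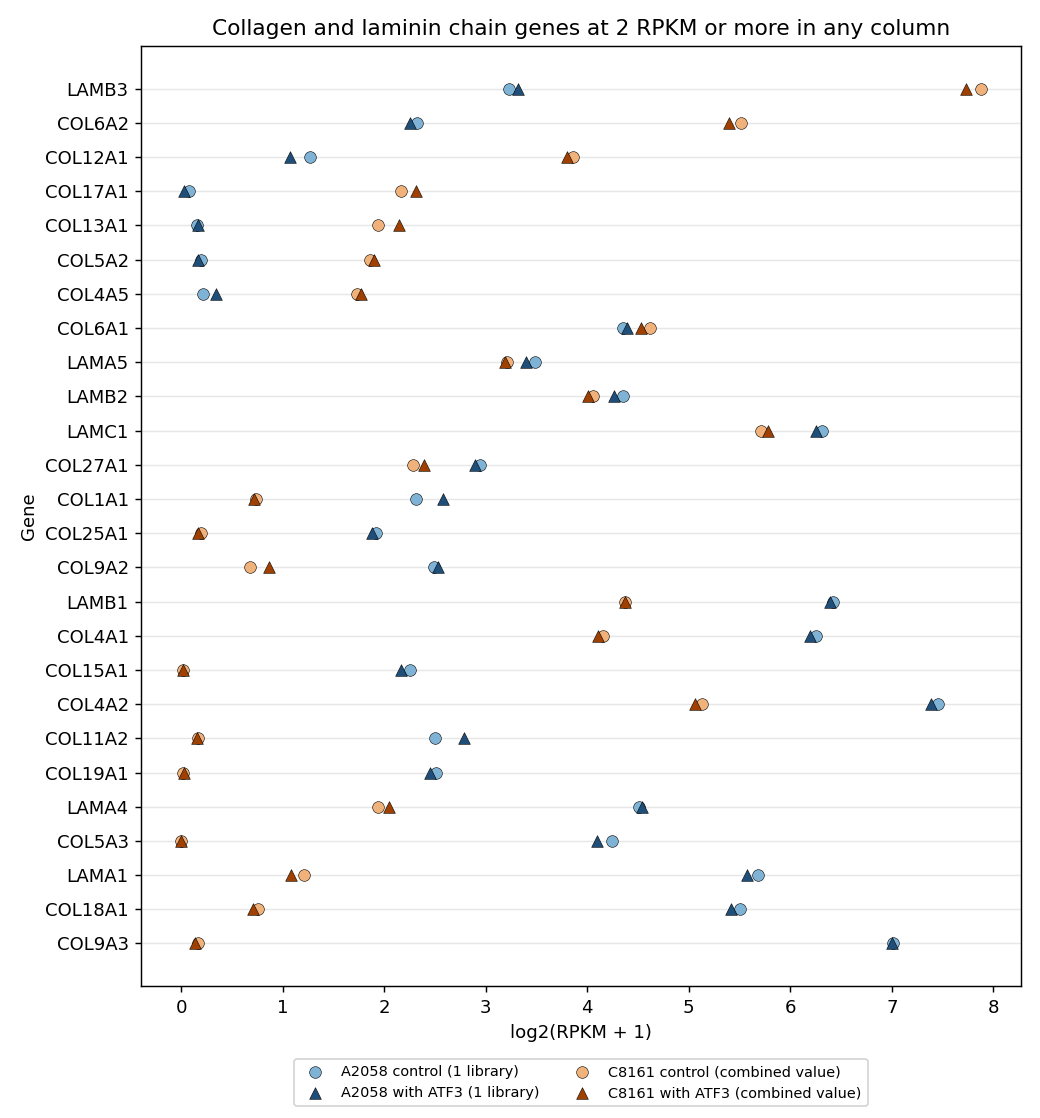
Levels of chain genes at 2 RPKM or more in any column, as log2(RPKM + 1) on the horizontal axis, ordered by the difference between the control cells; circles are controls, triangles cells with ATF3, blue A2058 and orange C8161. Circle and triangle of 1 line lie close together in each row, while the lines stand apart in most rows, from LAMB3 at the top to COL9A3 at the bottom.

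The first comparison asks which chains each line carries without introduced ATF3. C8161 and A2058 controls differed by a log2 ratio of 1 or more in 23 of the 32 chains compared. In C8161 8 of 32 chains were higher, against 9.37% of all 12372 genes compared, and 15 of 32 were lower, against 20.7% of all genes. The median log2 ratio of the 32 chains was −0.63, and that of all genes −0.19. The scale of this comparison depends on the normalization: quantile normalization moved the median of all genes from −0.19 to 0.08 and that of the chains from −0.63 to −0.20. It changed the split of all genes past the fold from 9.37% higher and 20.7% lower to 13.6% and 15.1%, and that of the chains from 8 and 15 to 11 and 14. With GC content and length trends taken out, the chain median was −0.25 and that of all genes −0.13, with 10 chains higher and 14 lower past the fold. Signs were 12 above and 20 below 0, against 40.7% and 59.3% of all genes. Above the level band, the middle 95% of ratios among the 500 genes of most similar level, lay 3 chains, COL6A2 and LAMB3 among them, against 2.65% of all genes, and below it 6 (COL4A1, COL4A2, COL5A3, COL9A3, LAMA1 and LAMB1) against 2.31%. For all 32 chains the difference between the lines was larger in size than the difference with ATF3 in either line, except for LAMA5 after quantile normalization (−0.03 between lines, −0.08 with ATF3 in A2058) and for COL27A1 with GC content and length trends taken out (−0.08 between lines, 0.19 with ATF3 in C8161).

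**Figure D2:**
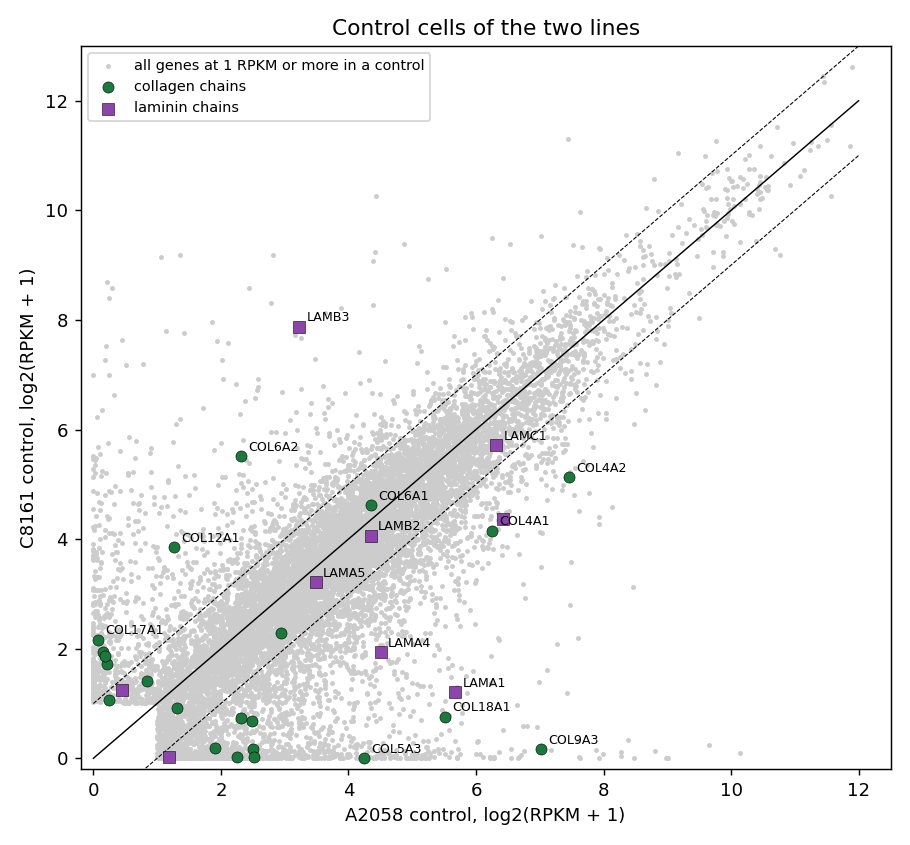
Level in the A2058 control (horizontal) and in the C8161 control (vertical), both as log2(RPKM + 1); grey points are all genes at 1 RPKM or more in a control, green circles collagen chains and purple squares laminin chains, with a solid line at equal levels and dashed lines at a difference of 1. LAMB3 and COL6A2 lie far above the dashed lines and COL9A3, COL5A3, COL18A1 and LAMA1 far below, while LAMC1, LAMB2, LAMA5 and COL6A1 lie between them.

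Collagen IV, the sheet-forming collagen of basement membranes, was the largest of the classes in A2058 with laminins split by chain type (all laminin chains together held 35.4%), with 32.2% of the summed chain level in the control, against 8.6% in the C8161 control. COL4A2 was the highest chain of A2058, at 175 RPKM in the control and 167 with ATF3, and was at 34.1 and 32.4 RPKM in C8161. COL4A1, its partner in the most widespread collagen IV molecule, was at 75.1 and 72.3 RPKM in A2058 and at 16.8 and 16.2 in C8161. Both genes were thus higher in A2058, COL4A2 5.14-fold and COL4A1 4.48-fold between the controls. They lie head to head on chromosome 13 (COL4A1 at 110148963 to 110307157 on the minus strand, COL4A2 at 110307284 to 110513209 on the plus strand, GRCh38), with 126 bases between them. The level of COL4A2 over that of COL4A1 was 2.33 and 2.30 in A2058 and 2.03 and 2.0 in C8161, so the pair kept nearly the same proportion although its level differed between the lines. COL4A5, a chain of kidney and other specialised basement membranes, was in C8161 at 2.31 RPKM in the control and 2.40 with ATF3, and in A2058 at 0.16 and 0.27. COL4A3, COL4A4 and COL4A6 stayed at 0.48 RPKM or less.

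The laminin chains also differed widely in level between the lines. LAMB3, a beta chain of the epithelial laminin that anchors keratinocytes, was the highest chain of C8161, at 234 RPKM in the control and 212 with ATF3, and was at 8.37 and 8.98 RPKM in A2058. The control level of LAMB3 was 27.9-fold higher in C8161. LAMA3, the alpha chain of the same laminin, was at 1.37 and 1.16 RPKM in C8161 and at 0.37 and 0.35 in A2058. In the C8161 control LAMB3 was 171 times the level of LAMA3, so the beta chain was abundant where the alpha chain was low.

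LAMA1, the alpha chain of the embryonic basement membrane laminin, was at 50.2 RPKM in the A2058 control and 46.5 with ATF3, and at 1.31 and 1.11 in C8161. LAMA4, an alpha chain known from blood vessels, was at 21.8 and 22.3 RPKM in A2058 and at 2.82 and 3.12 in C8161. Both were higher in A2058, 38.3-fold and 7.72-fold between controls. LAMA5, the most widespread alpha chain of adult basement membranes, was at 10.2 and 9.53 RPKM in A2058 and at 8.27 and 8.10 in C8161. LAMB1, the common beta chain, was at 84.9 and 82.7 RPKM in A2058 and at 19.7 and 19.8 in C8161. LAMB2, a beta chain of muscle and kidney basement membranes, was at 19.4 and 18.2 RPKM in A2058 and at 15.7 and 15.1 in C8161. LAMC1, the common gamma chain, was at 78.6 and 75.2 RPKM in A2058 and at 51.4 and 53.9 in C8161. The levels of LAMA5, LAMB2 and LAMC1 were nearest between the lines, within a log2 ratio of 0.60 in size, and with the trends of GC content and length removed LAMA5 and LAMB2 were higher in C8161 (0.61 and 0.19). LAMB1 and LAMC1 were close to each other in A2058, with a ratio of 1.08 in the control, whereas in the C8161 control LAMC1 was 2.61 times LAMB1. LAMA2 and LAMB4 stayed at 0.42 RPKM or less, and LAMC3 reached 1.28 RPKM in the A2058 control against 0.01 in that of C8161.

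**Figure D3:**
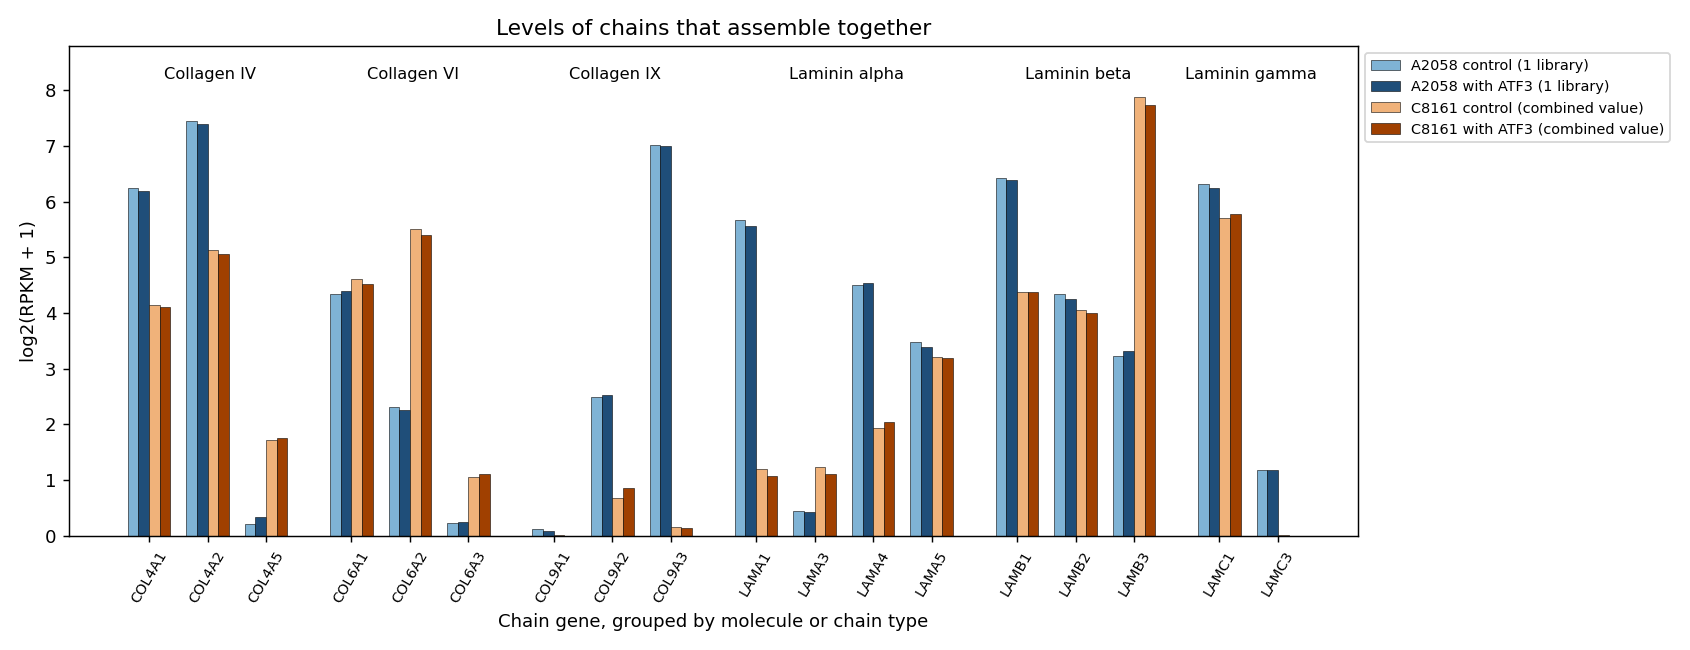
Bars give log2(RPKM + 1) from 0 for chains of collagens IV, VI and IX and for laminin alpha, beta and gamma chains, with 4 bars per gene: A2058 control, A2058 with ATF3, C8161 control, C8161 with ATF3, without error bars since there is 1 value per arm. LAMB3 towers in C8161 beside a low LAMA3, and COL9A3 towers in A2058 next to low COL9A1 and COL9A2.

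Collagen VI made up 11.1% of the summed chain level in the C8161 control and 3.0% in the A2058 control. COL6A1 was at 19.4 RPKM in the A2058 control and 20.1 with ATF3, and at 23.5 and 22.1 in C8161. COL6A2, its tandem neighbour on chromosome 21 with 93063 bases between them, was at 4.0 and 3.77 RPKM in A2058 and at 44.7 and 41.1 in C8161. COL6A2 differed between the lines 11.2-fold, while COL6A1 differed 1.21-fold; its log2 ratio of 0.26 was 0.84 with GC content and length trends taken out. The order of the pair was therefore opposite: COL6A1 was 4.86 times COL6A2 in the A2058 control, and COL6A2 was 1.90 times COL6A1 in that of C8161. COL6A3, the large chain needed for the mature collagen VI molecule, was only at 0.18 and 0.19 RPKM in A2058 and at 1.08 and 1.15 in C8161.

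Fibrillar collagens were low in both lines, with 4.5% of the summed chain level in the A2058 control and 1.5% in that of C8161. COL5A3, a minor fibrillar chain, was at 17.9 RPKM in the A2058 control and 16.1 with ATF3, and was listed at 0 in both C8161 columns. COL5A2 had the opposite pattern, at 2.63 and 2.72 RPKM in C8161 and at 0.14 and 0.12 in A2058. COL1A1, the main chain of collagen I, was at 3.97 RPKM in the A2058 control and 4.99 with ATF3, and at 0.66 and 0.64 in C8161. Its partner COL1A2 stayed at 0.07 RPKM or less in all columns, and COL3A1, the other chief collagen of soft connective tissue, at 0.29 or less. COL11A2, a cartilage collagen chain, was at 4.65 and 5.88 RPKM in A2058 and at 0.12 and 0.11 in C8161. COL27A1, also of cartilage, was at 6.70 and 6.44 RPKM in A2058 and at 3.87 and 4.25 in C8161, a log2 ratio between controls of −0.66 that was −0.08 with GC content and length trends taken out. It was the only fibrillar chain at 2 RPKM or more in both lines.

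The collagens that decorate fibrils, known as FACITs, held 18.1% of the summed chain level in the A2058 control and 2.4% in that of C8161. Nearly all of the A2058 share was COL9A3, at 128 RPKM in the control and 127 with ATF3, against 0.12 and 0.10 in C8161. The other chains of collagen IX were far lower in A2058: COL9A2 was at 4.62 and 4.77 RPKM, 27.8 times below COL9A3 in the control, and COL9A1 at 0.09 and 0.06. In C8161 COL9A2 was at 0.60 and 0.82. COL19A1 was at 4.71 and 4.48 RPKM in A2058 and at 0.01 and 0.02 in C8161. COL12A1, a FACIT of tendon and of stressed stroma, was at 13.5 and 12.9 RPKM in C8161 and at 1.40 and 1.1 in A2058, and so was the one FACIT that was high in C8161.

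Collagens that span the cell membrane were split by line. COL13A1, found at cell junctions and at the neuromuscular synapse, was at 2.82 RPKM in the C8161 control and 3.43 with ATF3, and at 0.11 and 0.12 in A2058. COL17A1, the hemidesmosome collagen that binds the laminin of LAMB3 and LAMA3, was at 3.47 and 3.96 RPKM in C8161 and at 0.05 and 0.02 in A2058. COL25A1, known from neurons, was at 2.77 and 2.68 RPKM in A2058 and at 0.14 and 0.12 in C8161. The multiplexins, basement membrane collagens with interrupted helices, were A2058 genes. COL18A1, the source of endostatin, was at 44.5 and 41.8 RPKM in A2058 and at 0.69 and 0.63 in C8161, 64.5-fold apart between controls. COL15A1 was at 3.75 and 3.47 RPKM in A2058 and at 0.01 in both C8161 columns. Of the exon bases of COL18A1, 16.4% also lie in exons of SLC19A1 on the other strand, and the strand setting of the counting is not given in the sources used here, so reads of the 2 genes may not be separated.

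The second comparison sets C8161 cells with ATF3 against their neomycin control. Little of the family differed. Of 21 chains compared, 1 was higher by a log2 ratio of 0.2 or more (1.15-fold on the scale of RPKM + 1), against 5.33% of all 10941 genes compared, and 0 were lower by as much, against 6.63% of all genes. A share of 1 in 21 (4.76%) is near that background. The one was COL13A1, with a log2 ratio of 0.21, which was 0.18 after quantile normalization and 0.28 with GC content and length trends taken out. None of the 21 lay outside its level band, which 2.74% of all genes exceeded above and 2.67% below. Ratios ran from −0.14 for LAMB3 to 0.21 for COL13A1. Among the cell type markers the endothelial cadherin CDH5 was at 18.1 RPKM with ATF3 against 8.86, and the endothelial factor ERG at 1.36 against 0.86. Of the 4 endothelial markers compared, the other 2 were lower, TIE1 at 62.8 against 67.2 and EGFL7 at 8.58 against 9.75. CD68 was at 37.58 against 29.03. The part of these markers in the result was not tested.

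Laminin chains lay on both sides of 0. LAMB3 was at a log2 ratio of −0.14 and its partner LAMA3 at −0.13. LAMB1 was at 0.00 and LAMA1 at −0.13, while LAMA4 was at 0.11 and LAMC1 at 0.07. Among membrane collagens COL17A1 was at 0.15 beside COL13A1. Values for COL4A1, COL4A2, COL6A1 and COL6A2 were −0.05, −0.07, −0.09 and −0.12. Of these, the last 3 were at 0.02 each with those trends taken out, and LAMA5 and LAMB2 moved from −0.03 and −0.05 to 0.10 and 0.02.

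Among genes compared that have a reference transcript, chains had the higher median GC content and length in both lines. In A2058 the 25 chains were at 61.3% and 6425 bases, against 48.5% and 3653 bases over all genes. In C8161 the 21 chains were at 55.4% and 6547 bases, against 47.9% and 3711 bases over all genes. Their median log2 ratio was −0.03, with 10 chains above and 11 below 0 against 52% and 47.3% of all genes, and it reversed to 0.02, with 14 above and 7 below, once the trends were removed. The sign of the median thus changed with the handling of GC content and length.

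**Figure D4:**
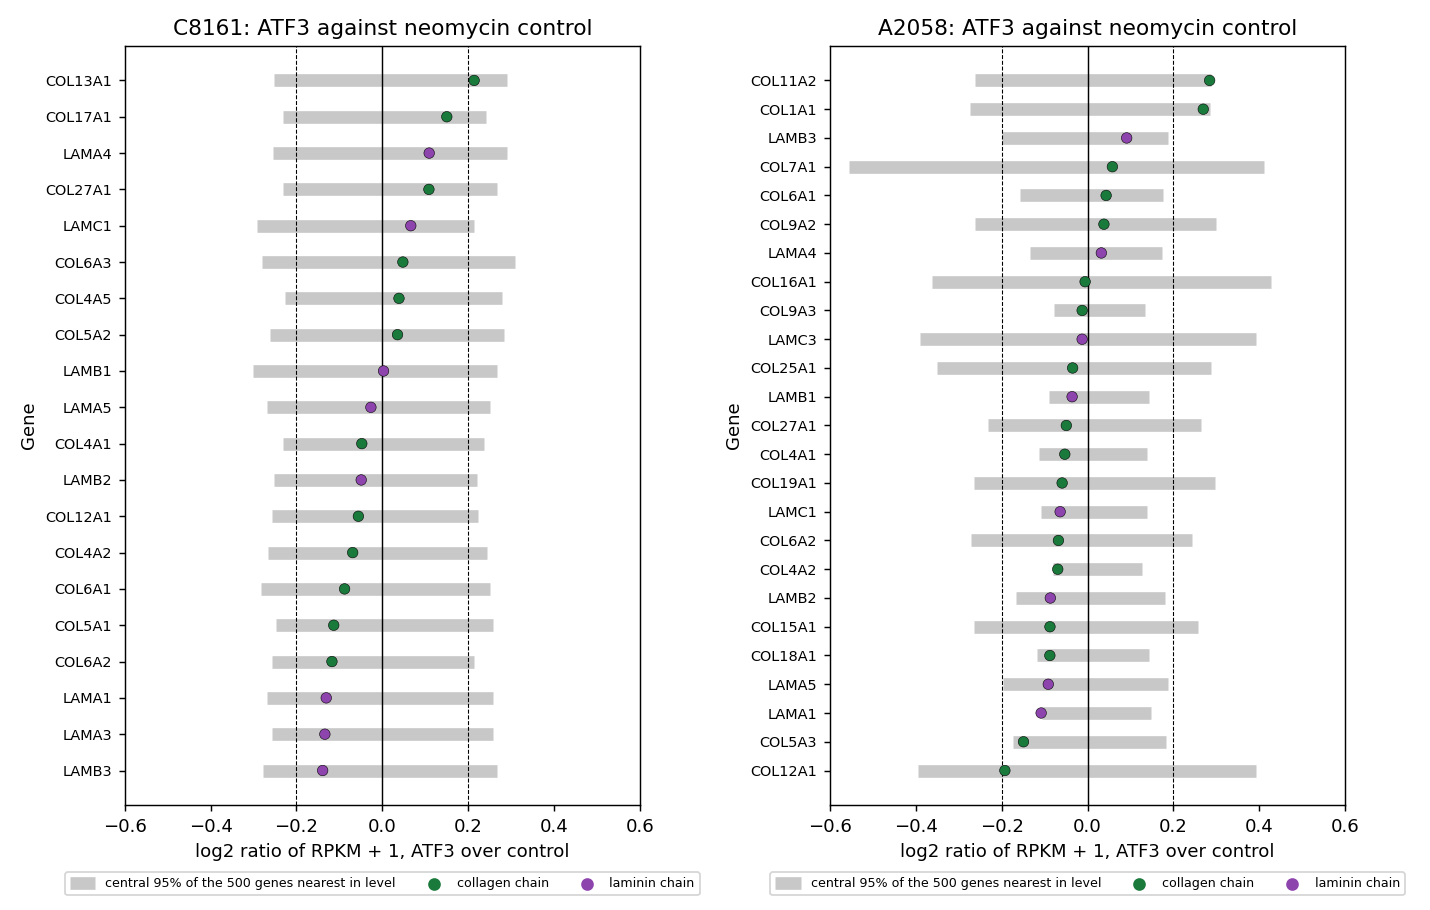
Log2 ratio of RPKM + 1, cells with ATF3 over control, for chains compared in C8161 (left) and in A2058 (right); green points are collagens, purple points laminins, grey bars the level bands, and dashed lines mark 0.2. Apart from LAMA1 in A2058, at the very edge, no point leaves its grey bar, and COL13A1, COL11A2 and COL1A1 are the points past a dashed line.

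The third comparison sets the A2058 library with ATF3 against its control library. Here 2 of 25 chains were higher by a log2 ratio of 0.2 or more, against 4.23% of all 11883 genes compared, and 0 were lower by as much, against 3.51%. They were COL11A2 (4.65 RPKM in the control, 5.88 with ATF3, log2 ratio 0.28) and COL1A1 (3.97 and 4.99, log2 ratio 0.27). Both folds were 1.26 without the added 1. With a depth at the low end of the estimate, their approximate counting intervals (95%, counting error only) were 1.13 to 1.41 and 1.12 to 1.41. In C8161 neither gene reached 1 RPKM. Both also lay inside their level bands, which end at 0.29 for each.

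More of the A2058 chains lay below 0 than of all genes: 18 of 25 (72%), against 48.1% of all genes, with 7 above, against 51.3%. Their median log2 ratio was −0.05, and that of all genes 0.00. In the same pair of libraries some markers of cell types were past 0.2: MLANA was at 17.8 RPKM in the control and 20.7 with ATF3, SFN at 0.71 and 1.48, ESAM at 1.70 and 2.73, LYZ at 1.28 and 2.07, and FCER1G at 1.17 and 0.39. Of the 9 melanocyte lineage markers 6 were above 0 and 3 below. Above their level bands lay 2, against 2.67% of all genes, and below lay 1, DCT (308 and 292 RPKM), against 2.72%. Of the 3 endothelial markers compared, ESAM was above its level band and EGFL7 (54.4 and 49.0) below its own. The part of these markers in the result was not tested. The median of the chains was −0.02, with 10 above and 15 below, with GC and length trends taken out. Of the 12 chains at 10 RPKM or more in the A2058 control, 10 were below 0 and 2 above. The share among all genes at that level was not counted. These chains were also picked on the column that the ratio divides by, so the counts cannot show whether abundant chains shifted. The chains below 0 ranged from −0.19 (COL12A1) to −0.006 (COL16A1), with COL5A3 at −0.15, COL4A1 at −0.05, COL4A2 at −0.07 and LAMA1 at −0.11. LAMA4 (0.03) and COL6A1 (0.04) were above 0. COL5A3 was at a fold of 0.896, and COL12A1 at 0.786 from 1.40 to 1.1 RPKM. The approximate counting interval excluded a fold of 1 from above in 2 chains, against 10.4% of all genes, and from below in 9 of 25, also against 10.4%. Such intervals are narrower for longer transcripts at a given level, and the chains had a median of 6425 bases against 3653 over all genes. The part of length in these counts was not tested. The intervals say nothing of the spread between cultures. LAMA1 alone was outside its level band, with 2.72% of all genes below theirs; 11.1% of its exon bases are shared with transcripts on the other strand, and its ratio was −0.06 with the trends taken out.

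Of the 13 chains compared in both lines, 7 were below 0 in both, 1 was above 0 in both (LAMA4), and 5 had opposite signs (COL6A1, COL27A1, LAMB1, LAMB3 and LAMC1). Over all 10331 genes compared in both, 21.8%, 25.6% and 51.5% did so. LAMB3 was at −0.14 in C8161 and 0.09 in A2058, and COL27A1 at 0.11 and −0.05. With GC content and length trends taken out, 4 were below 0 in both, 2 above in both and 7 opposite, against 24.3%, 25.9% and 49.9% of all genes. None of these differences between lines was tested, since no arm has a replicate value.

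Genes that make, export and bind the chains were read from lists chosen with earlier results of these data known. The background shares are those given above for each comparison. Of 16 collagen hydroxylases and chaperones compared in each line, 0 passed a log2 ratio of 0.2 in either line. Their medians were −0.04 in C8161 and 0.04 in A2058. The lysyl hydroxylase PLOD3 was at 15.9 RPKM with ATF3 against 18.3 in C8161, the collagen galactosyltransferase COLGALT1 at 85.7 against 95.7 and FKBP14, a helix-folding isomerase, at 9.62 against 8.49. In A2058 the prolyl hydroxylase subunits P4HA1 and P4HA2 were at 54.1 against 48.8 and 53.7 against 48.5 RPKM, and P3H4, a partner of the prolyl and lysyl hydroxylases, at 53.4 against 58.1, below its level band. Between the controls 3 of 17 were higher in C8161 and 7 were lower, counted from a log2 ratio of 1, against 9.37% and 20.7% of all genes. PLOD3 was at 242 RPKM in A2058 against 18.3 in C8161, and PLOD2 at 34.3 against 171.

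Of 13 export and processing genes compared in C8161, 2 were higher and 1 lower by 0.2 or more. MIA3, which encodes the receptor TANGO1 that loads procollagen into vesicles, was at 7.92 RPKM with ATF3 against 6.59. SEC24D, a coat protein of those vesicles, was at 20.0 against 16.9. BMP1, the protease that trims procollagen, was at 3.11 against 3.76. In A2058 1 of 12 passed, the enhancer of that trimming PCOLCE2, at 8.08 against 6.75 RPKM. Its relative PCOLCE was there at 80.8 against 76.0 and the procollagen protease ADAMTS3 at 2.27 against 2.53.

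Basement membrane partners had 1 of 8 lower by 0.2 or more in C8161, and 0 of 9 past it in A2058. The 1 was the heparan sulfate proteoglycan GPC1, at 6.44 RPKM with ATF3 against 8.15, below its level band. Agrin (AGRN), which links laminin to the cell surface, was at 35.6 against 40.95 RPKM in C8161 and at 43.3 against 46.2 in A2058. Perlecan (HSPG2) was at 2.62 against 2.29 in C8161 and at 13.5 against 14.6 in A2058. GPC1 was at 7.88 against 7.54 in A2058, and fibulin-1 (FBLN1) at 8.26 against 9.29 in C8161. Receptors of collagen and laminin had 1 of 10 higher in C8161, DDR2, a receptor tyrosine kinase for fibrillar collagen, at 12.4 RPKM with ATF3 against 10.0, above its level band. In A2058 0 of 11 passed, and DDR2 was at 8.53 against 9.63. The hyaluronan receptor CD44, which also binds collagen, was at 217 against 197 RPKM in C8161. ITGA2, of a collagen-binding integrin, was at 5.86 against 5.31 in C8161 and at 3.29 against 3.52 in A2058. ITGA6, an alpha chain of laminin-binding integrins, was at 37.4 against 40.0 in A2058 and at 60.2 RPKM in the C8161 control, while its partner in hemidesmosomes, ITGB4, was at 0.02. The related ITGA3 was at 209 RPKM in the C8161 control and 49.6 in that of A2058.

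ATF3 binds DNA as a dimer at CRE sites, written TGACGTCA, and with JUN proteins at AP-1 sites, written TGACTCA or TGAGTCA on the 2 strands. The 250 bases before RefSeq gene starts (GRCh38.p14) were searched for these letters on both strands. Windows were at hand for 41 of the 56 chains, 55 windows in all since some genes have several starts. The CRE letters occurred in 0 of the 55, against 1.65% of all 35116 windows, and the AP-1 letters in 2, 3.64% against 4.20%. Both were genes of the epithelial laminin, LAMB3 and LAMA3. A match is a run of letters and not a measured binding site. The sequences are shown because LAMB3 and LAMA3 encode chains of one trimer, with levels far apart in C8161. AP-1 letters are in capitals, 5′ to 3′ on the strand of the gene. LAMB3 is shown over chr1:209651395-209651624 (minus strand, upstream of the most downstream of its RefSeq starts), where the match begins 67 bases before that start; the stretch shown ends 20 bases short of it. The LAMA3 stretches shown lie at chr18:23872884-23872912 and chr18:23872940-23872968 (plus strand). Their matches begin 125 and 69 bases before the RefSeq start used, at 23873020. That start lies 183567 bases inside the gene from its outermost start.
LAMB3: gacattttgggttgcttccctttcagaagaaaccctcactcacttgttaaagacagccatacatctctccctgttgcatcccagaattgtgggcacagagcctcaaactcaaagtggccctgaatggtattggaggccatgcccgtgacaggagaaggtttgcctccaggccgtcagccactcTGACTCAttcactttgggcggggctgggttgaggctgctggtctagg
LAMA3, first match: ctggcacaggcTGACTCAtgtgtgaagtt
LAMA3, second match: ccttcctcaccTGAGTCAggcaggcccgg
With ATF3, the log2 ratios of LAMB3 and LAMA3 in C8161 were −0.14 and −0.13, both inside their level bands.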

How the data were processed

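RNA-seq of 8 libraries was deposited as 1 table of RPKM values, computed by the authors per the file headers, with a column for each A2058 library and a combined one for each arm of C8161. Per the submitters' processing notes, the tools were Bowtie2 and RSEM and the genome hg38. The sources used here do not say which annotation, filters or strand setting were used, or how the C8161 values were combined. Symbols and coordinates came from RefSeq genes (GRCh38.p14, same assembly) by Entrez identifier, and GC content, length and shared sequence from the longest GENCODE 29 transcript. Chains share at most 0.81% of their 50-base stretches with other genes.

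The planned test, limma over C8161 libraries, needs a value per library, so no test was run. Ratios used a pseudocount of 1 and a minimum of 1 RPKM; trends were removed with splines (scikit-learn 1.9.0, numpy 2.4.6). Chain sizes past 0.2 (ATF3) or 1 (lines) were counted beside all genes. Depth was read from values under 0.1 to 0.25 RPKM of 400 to 1500-base transcripts; this search, revised after unstable first results, and the A2058 counting intervals built on it were added after the data were seen. Ratios and bands were tested on simulated data. Chains at 2 RPKM or more were named, and of each pathway list up to 3 genes per line by size of ratio; COL4A3, COL4A4, COL4A6, COL9A1, COL1A2, COL3A1, COL6A3, LAMA2, LAMA3, LAMB4, LAMC3, PLOD2, ITGA3, ITGB4 and marker genes outside that rule were named after their values were seen. Members and lists were chosen with earlier results of these data known. The values of 1 chain are not reported here.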

Additional observations from a re-analysis of the deposited data

How the results depend on the processing

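No paired analysis was possible because the C8161 columns combine their replicates and A2058 has 1 library per arm; for the same reason no replicate could be left out. Pseudocount, minimum level, quantile normalization and removal of GC and length trends were varied. In C8161 with ATF3, the chains past a log2 ratio of 0.2 numbered 1, and 3 with a pseudocount of 0.1 (LAMA1 and LAMA3 added, lower), 0 of 11 with a minimum of 5 RPKM, and 0 of 26 after quantile normalization. The median of −0.03 was −0.049 with a minimum of 5 RPKM and reversed to 0.023 without the trends. In A2058, 2 chains passed, 3 with a pseudocount of 0.1 (COL12A1 added, lower, at −0.32), and 1 with a minimum of 5 RPKM. The median of −0.05 was −0.013 without a minimum and −0.025 without the trends. Between controls, 23 chains passed, and 12 of 17 with a minimum of 5 RPKM, where fewer chains were compared; the median of −0.63 was −0.069 without a minimum. Other causes were not tested. Of the named chains, none past a threshold changed sign under these alternatives; with a pseudocount of 0.1, 11 of 27 ratios between controls were larger by more than the SD of genes of like level, among them COL15A1 (−2.23 to −5.13) and COL13A1 (1.78 to 3.80). The unknown depth of the C8161 columns gives no counting interval for them.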

Other observations

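Several chain genes are neighbours, and neighbours did not always share a level. COL4A5 and COL4A6 lie head to head on the X chromosome, 379 bases apart, and in the C8161 control stood at 2.31 and 0.19 RPKM, while COL4A1 and COL4A2, 126 bases apart, stood at 16.8 and 34.1. COL4A3 and COL4A4, also head to head and 135 bases apart on chromosome 2, were at 0.04 and 0.46 RPKM there. COL19A1 and COL9A1 on chromosome 6 point towards each other with 2592 bases between them, and in the A2058 control were at 4.71 and 0.09 RPKM. LAMB1 and LAMB4, on 1 strand of chromosome 7 with 8500 bases between them, were at 84.9 and 0.39 RPKM there. COL3A1 and COL5A2 on chromosome 2, facing each other across 19151 bases, were in the C8161 control listed at 0 and at 2.63 RPKM.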
